A study of Homo sapiens with 12 samples.

Results

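The 7 genes described here are the MYC family (MYC, MYCN and MYCL), the partner protein gene MAX, and 3 long noncoding RNAs of the MYC locus (PVT1, CASC19 and CASC8). They were found by symbol in a table of read counts with 60605 lines, of which 40591 carry a gene symbol. Each of the 7 matched 1 line. The set was chosen by gene symbol with the CPM of these same 12 libraries, and their differences between groups, already known. Those differences are therefore given as descriptions, with no test. Tests are given only for other genes. Lists of those genes were made from general knowledge, but with earlier results of these data known. A list with more calls than all genes is therefore a description and not independent support.

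RNA was sequenced from ARPE-19, an established human cell line derived from retinal pigment epithelium (RPE). There were 4 groups of 3 libraries. WT names ARPE-19 cells for which the labels give no added gene. The other groups are stable ARPE-19 lines collected after 4 days of expressing an open reading frame (ORF): GFP, a fluorescent protein used as a control, GSTA4, a glutathione transferase that conjugates lipid aldehydes, or OSK. OSK was read as the reprogramming factors POU5F1 (OCT4), SOX2 and KLF4, with no MYC ORF. Whether replicate libraries came from separate cultures, and whether each line is 1 clone, is not stated, so p-values measure only the spread between these libraries, which may be technical. An ORF and any other difference between the lines cannot be told apart.

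MYC is a basic helix-loop-helix leucine zipper transcription factor that binds DNA as a dimer with MAX, most strongly at the E-box CACGTG, and is best known for raising genes of ribosome production, nucleotide synthesis and metabolism. MXD proteins, MNT and MGA compete for MAX and mostly repress. MYC is often added to OCT4, SOX2 and KLF4 in reprogramming. PVT1 lies just downstream of MYC, and CASC19 and CASC8 lie in the gene-poor region upstream of it, where enhancers of MYC have been described in several tissues.

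Library totals ran from 12630675 to 17045454 reads. A count of 0 allows up to 3 reads, which corresponds to 0.177 to 0.228 CPM (read counts divided by library size, on the usual CPM scale, after TMM scaling). In GFP replicate 1, 27349 named genes had at least 1 read. Among the remaining 11 libraries this number was 19488 to 22073. The summed CPM of 12 RPE markers, 10 of which passed the filter on low counts (RPE65 and TTR did not), was 1247 to 1323 in OSK, 1535 to 1599 in GSTA4, 2015 to 2311 in GFP and 2284 to 2572 in WT. KRT8 and KRT18 carry most of that sum. At an adjusted p under 0.05 in edgeR, 7 of the 10 rose and 2 (KRT8 and KRT18) fell in GFP against WT. By the same rule 1 rose and 7 fell in GSTA4 against GFP, and all 10 fell in OSK against GFP. Of all genes, 22.2%, 29.2% and 45.9% were called in these comparisons, with 11.2%, 14.6% and 22.8% lower. The summed CPM of 12 markers of other cell types, nearly all of it MAP2, was 149 to 212 in WT and 178 to 193 in OSK, above the 80.8 to 105 of GFP and the 90.0 to 102 of GSTA4, and PTPRC, CD3E, CDH5 and KRT5 were at 0 in GSTA4 and OSK. In the OSK libraries 6 of 10 pluripotency markers had no read, and the summed CPM of that list was 2.06 to 2.91. Whether these marker levels bear on the values below was not tested. In bulk RNA, fewer cells of a type and less RNA per cell cannot be told apart.

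MYC was the most abundant of the 7 genes per length in every group. Per kilobase of merged GENCODE 29 exon, the mean level of MYC was 55.3 CPM in GSTA4, 41.2 in GFP, 40.8 in WT and 39.0 in OSK. On the same per-length scale MAX stood at 12.7 to 16.4 CPM and PVT1 at 2.28 to 4.92 CPM over the 4 groups. CASC19 stood at 0.00698 to 0.333 CPM, CASC8 at 0.0402 to 0.186, and MYCL at 0.0403 to 0.111. The MYC gene lies on chromosome 8 at 127735434 to 127742951, plus strand (RefSeq, GRCh38.p14). No other GENCODE 29 gene overlaps its annotated span.

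MYC RNA was higher in GSTA4 than in the other 3 groups. Its level was 116.3, 119.6 and 131.5 CPM in the WT libraries and 116.7, 133.8 and 120.2 CPM in the GFP libraries. It was 162.7, 172.0 and 163.0 CPM in the GSTA4 libraries and 121.7, 113.3 and 116.3 CPM in the OSK libraries. Every GSTA4 library lay above every library of the other groups, while WT, GFP and OSK overlapped one another. The mean was 165.9 CPM ± 5.27 (SD, n = 3) in GSTA4 and 123.6 CPM ± 8.99 (SD, n = 3) in GFP, a log2 difference of 0.42 (SE 0.0647), or 1.34-fold. Of all 15179 genes tested in that comparison, 42.3% had groups that did not overlap. Against WT the GSTA4 difference was 0.44 (SE 0.0645) on the log2 scale, and the share of all genes without overlap was not worked out there. The OSK mean of 117.1 CPM ± 4.30 (SD, n = 3) differed from GFP by -0.08 (SE 0.0652) and from GSTA4 by -0.50 (SE 0.0647) on the log2 scale. Where OSK and GSTA4 were compared, 58% of genes had groups that did not overlap. GFP and WT differed by 0.01 (SE 0.065).

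The other family members were at or near the limit of detection. MYCN, on chromosome 2 at 15940550 to 15947004 and known from the developing nervous system, had 4 reads in GFP replicate 1 and none in the other 11 libraries. MYCL, on chromosome 1 at 39895428 to 39901917, had 8, 5 and 14 reads in WT and 6, 8 and 4 in GFP. It had 5, 3 and 1 reads in GSTA4 and 2, 5 and 5 in OSK. The MYCL means ran from 0.204 CPM ± 0.126 (SD, n = 3) in GSTA4 to 0.564 CPM ± 0.236 (SD, n = 3) in WT. Ordered by mean (WT, GFP, OSK, GSTA4), neighbouring groups overlapped for MYCL, while WT overlapped neither OSK nor GSTA4. The lowest WT library and the highest OSK and GSTA4 libraries each held 5 reads, so this separation rests on library size. The share of all genes without overlap was not worked out for OSK or GSTA4 against WT. Neither gene passed the filter on low counts.

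MAX, the partner that MYC needs to bind DNA, was lowest in GSTA4 and highest in OSK. The gene lies on chromosome 14 at 65006101 to 65102695, minus strand, and FNTB overlaps it on the opposite strand, so reads of the pair may be mixed where counting ignored strand. MAX stood at 61.5, 68.0 and 63.3 CPM in WT and 59.0, 62.4 and 61.8 CPM in GFP. It stood at 57.2, 56.4 and 54.5 CPM in GSTA4 and 71.9, 73.0 and 73.1 CPM in OSK. All OSK libraries lay above and all GSTA4 libraries lay below those of WT and GFP, which overlapped each other. The log2 difference from GFP was -0.12 (SE 0.0647) for GSTA4 and 0.25 (SE 0.0638) for OSK, a 1.19-fold higher level in OSK. Groups did not overlap for 54.7% of all genes in OSK against GFP, and for 42.3% in GSTA4 against GFP. For OSK or GSTA4 against WT that share was not worked out. Expressed within each library, there were 33.8 MAX reads per 100 MYC reads ± 1.21 (SD, n = 3) in GSTA4. The ratio was 49.5 ± 2.52 in GFP, 52.6 ± 4.36 in WT and 62.1 ± 2.79 in OSK (SD, n = 3 each), and it depends on the lengths of both transcripts.

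**Figure D1:**
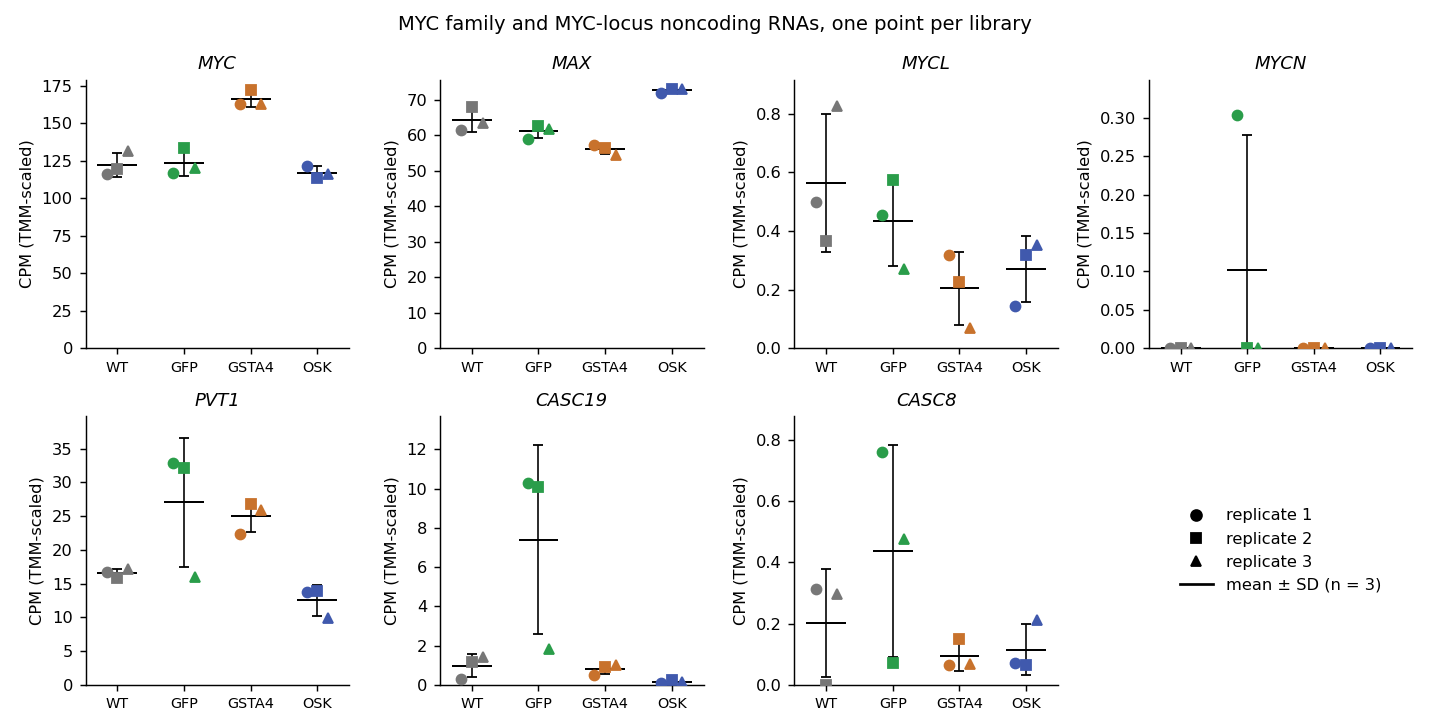
Level of each of the 7 genes in the 12 libraries. The vertical axis is TMM-scaled CPM from 0, each point is a library, and the horizontal line with its bar is the mean ± SD of 3 libraries. MYC is highest in the 3 GSTA4 libraries (162.7 to 172.0 CPM), while CASC19 reaches 10.3 and 10.1 CPM in GFP replicates 1 and 2 but 1.83 CPM in GFP replicate 3.

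The other genes that dimerise with MAX or with its relative MLX all passed the filter, and 4 of 9 changed in GSTA4 against GFP. MXD4 (log2 change 0.36, SE 0.0583, adjusted p = 8.91e-05), MNT (0.46, SE 0.0951, adjusted p = 0.000892) and MXI1 (0.34, SE 0.115, adjusted p = 0.0324) rose in edgeR's quasi-likelihood test, and all 3 encode repressors that compete with MYC for MAX. With WT as the control the MXI1 direction turned to -0.22 (adjusted p = 0.135), and its call was lost without GFP replicate 2 (adjusted p = 0.165), GFP replicate 3 (0.1), GSTA4 replicate 1 (0.121) or GSTA4 replicate 3 (0.0669). MXD4 stood at 192.3, 179.8 and 176.9 CPM in GSTA4, above the 140.6, 140.0 and 148.0 CPM of the GFP libraries. MLXIP, which pairs with MLX and senses glucose metabolites, fell by 0.24 (SE 0.0713, adjusted p = 0.0136 in edgeR). The MLXIP call is lost without GFP replicate 3 (adjusted p = 0.0694) or without GSTA4 replicate 2 (adjusted p = 0.0662). The background of this comparison is 29.2% of genes called, 14.7% higher and 14.6% lower. With library size as the scaling, the 3 higher and 1 lower calls became 2 and 2. Without GFP replicate 3 there were 2 higher and none lower.

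In OSK against GFP, 3 of these 9 genes rose and 3 fell, where 45.9% of all genes were called, 23.1% higher and 22.8% lower. MLX, the shared partner of MLXIP and MLXIPL, stood at 46.7, 45.7 and 42.0 CPM in OSK. The GFP libraries held 23.6, 26.2 and 21.9 CPM of MLX, and the groups did not overlap, as for 54.7% of all genes (log2 change 0.91, SE 0.0924, adjusted p = 7.55e-08 in edgeR). MGA, a large repressor that carries a MAX-binding domain, fell by 0.55 (SE 0.0759, adjusted p = 4.48e-06). MXD3, a MAX partner of dividing cells, rose by 0.79 (SE 0.183, adjusted p = 0.00138), and by 1.51 with WT as the control. Scaling by library size moves the split to 2 higher and 4 lower among these genes, and that of all genes to 18.2% higher and 27.5% lower. In OSK against GSTA4, 8 of the 9 were called, 3 higher and 5 lower, against 47.8% of all genes (24.1% higher, 23.8% lower). Leaving out any 1 library of these groups lowered the 8 calls to 6 or 7. There MXD4 fell by 0.58 (SE 0.0586, adjusted p = 5.66e-08) and MGA fell by 0.72 (SE 0.0753, adjusted p = 8.57e-08).

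GFP against WT called 22.2% of all genes, 11% higher and 11.2% lower, and called 4 of the 9 partners, 1 higher and 3 lower. Without WT replicate 3 the call of 1 lower gene was left, and 2 of the 9 were called without GFP replicate 1 or without GFP replicate 3. MXI1 fell by 0.56 (SE 0.114, adjusted p = 0.00167 in edgeR) in GFP. MXD3 was called higher by 0.72 (SE 0.2, adjusted p = 0.0139), with adjusted p = 0.112 without GFP replicate 3 and 0.0578 without WT replicate 3. The 3 comparisons that involve GFP share its libraries, and their values for a gene are not independent.

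**Figure D2:**
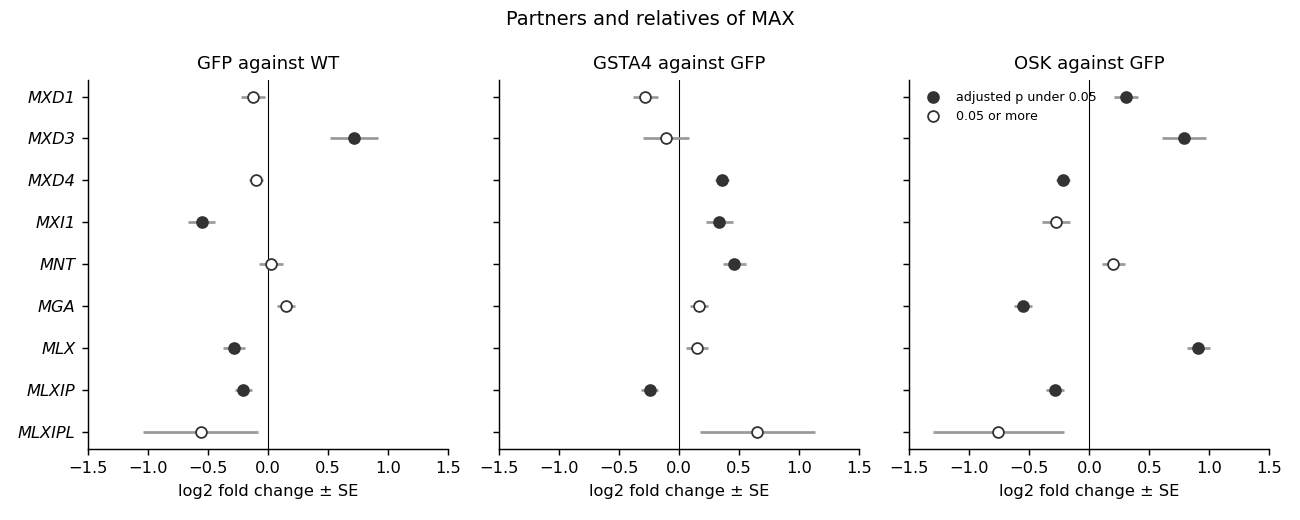
Log2 fold change of 9 partners and relatives of MAX in 3 comparisons. Points are fitted changes with bars of 1 SE, filled where the adjusted p is under 0.05. MXD4, MXI1 and MNT lie to the right in GSTA4 against GFP, and MLX lies furthest to the right in OSK against GFP (0.91).

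Of 15 cofactors that MYC recruits to chromatin, 2 rose and 1 fell in GSTA4 against GFP (20% called, beside 29.2% of all genes) and 2 rose and 2 fell in OSK against GFP (26.7%, beside 45.9%). None rose and 2 fell in GFP against WT (13.3%, beside 22.2%), and 4 rose and 3 fell in OSK against GSTA4 (46.7%, beside 47.8%). In GFP against WT, DESeq2 gave the same 0 and 2, and 1 gene was higher at an unadjusted p under 0.05 in edgeR. Without GSTA4 replicate 1, 1 of the 15 was called in GSTA4. RUVBL2, an ATPase of the TIP60 and INO80 complexes, rose by 0.34 (SE 0.0771, adjusted p = 0.00205 in edgeR) in GSTA4 against GFP. KAT2A, an acetyltransferase, differed there by 0.27 (adjusted p = 0.0135) and CCNT1, the cyclin partner of CDK9, by -0.26 (adjusted p = 0.024). Both calls were lost without GSTA4 replicate 1 (adjusted p = 0.101 and 0.0972). KAT2A also lost it without GFP replicate 3 (0.0823) or with WT as the control (0.296), and CCNT1 without GFP replicate 1 (0.109) or GSTA4 replicate 2 (0.154). TRRAP, a scaffold of acetyltransferase complexes, fell by 0.21 (SE 0.0579, adjusted p = 0.0053) and SMARCB1, a chromatin remodelling subunit, by 0.29 in OSK against GFP (SE 0.082, adjusted p = 0.00689). CDK9, the kinase that releases paused RNA polymerase, rose by 0.42 in OSK against GFP (SE 0.0868, adjusted p = 0.000503). With WT as the control the CDK9 difference was 0.03 (adjusted p = 0.832). CDK9 had itself fallen by 0.39 in GFP against WT (SE 0.0866, adjusted p = 0.00285). ZBTB17 (MIZ1), through which MYC represses cell cycle inhibitors, fell by 0.48 in GFP against WT (SE 0.0942, adjusted p = 0.00105).

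Among 13 genes that control MYC protein turnover, 6 rose and 2 fell in OSK against GFP, and 3 rose and 1 fell in GSTA4 against GFP, where 45.9% and 29.2% of all genes were called. The GSTA4 count was 1 and 1 without GFP replicate 2, GFP replicate 3, GSTA4 replicate 1 or GSTA4 replicate 2. PLK1, a mitotic kinase, stood at 25.8, 31.3 and 33.1 CPM in OSK. It stood at 11.5, 9.61 and 11.5 CPM in GFP and at 3.60 to 4.99 CPM in WT, with no overlap between these groups. Groups did not overlap for 34.6% of all genes in GFP against WT and for 54.7% in OSK against GFP. For OSK against WT that share was not worked out. The PLK1 log2 change was 1.29 in GFP against WT (SE 0.156, adjusted p = 8.18e-06) and 1.47 (SE 0.132, adjusted p = 1.15e-08) in OSK against GFP. AURKA, a mitotic kinase that shields MYC proteins from degradation, rose by 1.28 (SE 0.179, adjusted p = 5.99e-06) between GFP and OSK, and BTRC, a ubiquitin ligase subunit, by 0.75 (SE 0.0753, adjusted p = 5.96e-08). The OSK changes were 2.76 for PLK1 and 2.36 for AURKA with WT as the control. STUB1, a chaperone-linked ubiquitin ligase, differed by 0.34 in GSTA4 against GFP (SE 0.093, adjusted p = 0.00916), with adjusted p = 0.059 without GSTA4 replicate 1 and a difference of 0.01 (adjusted p = 0.958) with WT as the control. USP28, a deubiquitinase of MYC, fell by 0.45 (SE 0.0975, adjusted p = 0.00153) in GSTA4 and by 0.46 in OSK against GFP (SE 0.0975, adjusted p = 0.000603). SKP2, a ubiquitin ligase subunit, rose by 0.75 in GFP against WT (SE 0.112, adjusted p = 8.13e-05).

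Of 6 proteins that bind MYC mRNA, 5 were tested. IGF2BP2, which stabilises MYC mRNA, stood at 74.0, 64.1 and 72.2 CPM in GSTA4, above the 52.5, 48.1 and 47.2 CPM of GFP (log2 change 0.51, SE 0.0753, adjusted p = 2.74e-05 in edgeR). IGF2BP3, an oncofetal relative, was low everywhere but higher in OSK, at 2.42, 4.75 and 4.71 CPM against 1.06, 0.65 and 0.54 CPM in GFP (2.40, SE 0.388, adjusted p = 3.53e-05). Over all 42 tested genes of the MAX network, cofactor, turnover and mRNA binding lists, 9 rose and 3 fell in GSTA4 against GFP, 28.6% called beside 29.2% of all genes. The median log2 change of the 42 was 0.02, beside 0.01 over all genes. In OSK against GFP 12 rose and 7 fell (45.2%, beside 45.9% of all genes) with a median of 0.04, beside -0.02 over all genes, and library size scaling gave 9 and 10.

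Genes that MYC is known to induce were split into 3 lists. Ribosome biogenesis, with 20 genes tested, had 6 higher and none lower in GSTA4 against GFP, in edgeR and in DESeq2 alike. That is 30% called, beside 29.2% of all genes (14.7% higher, 14.6% lower). At an unadjusted p under 0.05 in edgeR the counts were 7 and 0. NOP58, a core protein of box C/D snoRNPs, rose by 0.30 (SE 0.0765, adjusted p = 0.00528 in edgeR). NCL (nucleolin, 0.25, SE 0.0687, adjusted p = 0.00912) and MRTO4, a ribosome assembly factor (0.34, SE 0.0953, adjusted p = 0.01), rose as well. The NCL call was lost without GFP replicate 2 (adjusted p = 0.0751) or GSTA4 replicate 2 (0.0521), and the MRTO4 call without GSTA4 replicate 2 (0.0569) or GSTA4 replicate 3 (0.0586). Leaving out 1 library lowered the count to 3 without GFP replicate 1, 2 without GFP replicate 2, 3 without GSTA4 replicate 2 and 2 without GSTA4 replicate 3. With WT as the control, 3 were higher and 2 lower in GSTA4, and NCL differed by 0.08 (adjusted p = 0.397). The median over the 20 genes in GSTA4 against GFP was 0.13.

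In OSK against GFP, 1 of the 20 ribosome biogenesis genes was called (5%, beside 45.9% of all genes). NPM1 (nucleophosmin) stood at 701.6, 726 and 732.0 CPM in OSK and 887.4, 975.2 and 956.5 CPM in GFP (log2 change -0.38, SE 0.0619, adjusted p = 3.36e-05 in edgeR). Without GFP replicate 3, 4 of the 20 were called higher in OSK. In GFP against WT 2 of the 20 were lower (10% called, beside 22.2% of all genes), and 4 without GFP replicate 3 or with no filter on low counts. In OSK against GSTA4 1 was higher and 6 were lower. PPAN, a factor for large subunit maturation, fell by 0.89 in GFP against WT (SE 0.182, adjusted p = 0.00169 in edgeR). DKC1, the pseudouridine synthase dyskerin, also fell in GFP against WT, by 0.31 (SE 0.0771, adjusted p = 0.00739).

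Among 12 nucleotide and polyamine genes, 5 rose and 2 fell in GSTA4 against GFP, and 2 rose and 4 fell in OSK against GFP, where 29.2% and 45.9% of all genes were called. The 4 falls in OSK were 2 without GFP replicate 2, GFP replicate 3 or OSK replicate 2. PRPS2 (0.63, SE 0.0948, adjusted p = 3.21e-05) and PAICS (0.33, SE 0.0598, adjusted p = 0.000277), enzymes of purine synthesis, rose in GSTA4. IMPDH1, which catalyses the committed step to guanine nucleotides, rose by 0.78 in GSTA4 against GFP (SE 0.134, adjusted p = 0.000147). Against WT the IMPDH1 difference was 0.21 (adjusted p = 0.202), and IMPDH1 had fallen by 0.57 in GFP against WT (SE 0.135, adjusted p = 0.00479). ODC1, the first enzyme of polyamine synthesis, stood at 600.4, 568.4 and 587.5 CPM in OSK and 297.9, 362.1 and 341.2 CPM in GFP (0.81, SE 0.0794, adjusted p = 4.35e-08). ODC1 rose by 0.47 in GFP against WT (SE 0.0798, adjusted p = 0.000284). IMPDH2 fell by 0.33 in OSK against GFP (SE 0.0597, adjusted p = 0.00014). TYMS, which makes thymidylate, rose by 0.97 in GFP against WT (SE 0.19, adjusted p = 0.00109).

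The 17 growth and metabolism genes held the largest changes of the 3 lists. In GSTA4 against GFP 6 rose and 3 fell, and in OSK against GFP 8 rose and 4 fell. Of all genes, 29.2% and 45.9% were called there. In GFP against WT 2 rose and 5 fell, beside 22.2% of all genes called. The 3 that fell in GSTA4 had the lowest adjusted p and are named here. GSTA4 and OSK went in opposite directions at LDHA and SLC2A1. LDHA, which makes lactate from pyruvate, stood at 104.4, 111.5 and 109 CPM in GSTA4. It stood at 250.6, 258.8 and 252.3 CPM in GFP and 926.8, 835.3 and 747.7 CPM in OSK. The LDHA log2 change against GFP was -1.23 (SE 0.127, adjusted p = 2.38e-07 in edgeR) in GSTA4 and 1.72 (SE 0.125, adjusted p = 4.66e-10) in OSK, and with WT as the control it was -2.14 and 0.81. SLC2A1, the glucose transporter GLUT1, changed by -1.10 (SE 0.0863, adjusted p = 3.94e-09) in GSTA4 and 1.14 (SE 0.086, adjusted p = 8.22e-10) in OSK. In OSK against GSTA4 the tested differences were 2.95 (SE 0.132, adjusted p = 1.46e-13) for LDHA and 2.24 (SE 0.0891, adjusted p = 1.96e-14) for SLC2A1. TFRC, the transferrin receptor, fell by 0.61 (SE 0.0754, adjusted p = 3.11e-06) in GSTA4, and CDK4, a G1 kinase, fell by 0.59 (SE 0.0641, adjusted p = 1.95e-07) in OSK. E2F2, an S phase transcription factor, rose by 2.67 in GFP against WT (SE 0.356, adjusted p = 2.48e-05), and PKM, a pyruvate kinase, fell by 0.50 (SE 0.0865, adjusted p = 0.000323).

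Over the 3 lists, 49 induced targets were tested. These lists were made with earlier results of these data known, so their shares are descriptions. In GSTA4 against GFP 17 rose and 5 fell (44.9% called, beside 29.2% of all genes), with a median log2 change of 0.13. The number that rose was 11 without GFP replicate 1, 11 without GSTA4 replicate 2 and 10 without GSTA4 replicate 3. Against WT, 15 rose and 8 fell in GSTA4, where 38.6% of all genes were called. In OSK against GFP 10 rose and 9 fell (38.8%, beside 45.9% of all genes), and library size scaling gave 8 and 11. In GFP against WT 5 rose and 8 fell (26.5%, beside 22.2% of all genes), with a median of -0.04. Most of these changes were small: with a log2 change of at least 1 also required, 3 of the 49 were called in GSTA4 against GFP, 4 in OSK against GFP and 1 in GFP against WT. The same rule called 5.7%, 11.6% and 3.31% of all genes, and 13.1% in OSK against GSTA4.

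Of 12 genes that MYC is known to repress, 2 rose and 6 fell in GSTA4 against GFP (median -0.30), and 1 rose and 8 fell in OSK against GFP (median -0.42). These are 66.7% and 75% called, beside 29.2% and 45.9% of all genes (14.6% and 22.8% lower). This list too was made with earlier results of these data known, so the excess is a description. In OSK against GSTA4 4 rose and 5 fell (median -0.06), and in GFP against WT 1 rose and 3 fell. CDKN2B (p15), an inhibitor of CDK4 and CDK6, stood at 58.0, 55.5 and 62.8 CPM in GSTA4, 147.6, 119.1 and 117.7 CPM in OSK, and 199.5, 201.9 and 211.3 CPM in GFP. It fell by 1.80 (SE 0.0956, adjusted p = 1.08e-11 in edgeR) in GSTA4 and by 0.67 (SE 0.091, adjusted p = 3.81e-06) in OSK, and it had fallen by 0.57 in GFP against WT (SE 0.0892, adjusted p = 0.000128). THBS1, a matrix glycoprotein, fell by 1.37 (SE 0.109, adjusted p = 4.58e-09) in GSTA4, while GADD45A, a stress-induced growth arrest gene, rose by 0.85 (SE 0.108, adjusted p = 4e-06). In OSK, NDRG2 fell by 1.33 (SE 0.15, adjusted p = 3.37e-07) and PDGFRB, a growth factor receptor, fell by 0.95 (SE 0.0662, adjusted p = 2.74e-10). NDRG1, named for its repression by N-myc, fell by 0.92 in GFP against WT (SE 0.109, adjusted p = 6.05e-06). FTH1, the ferritin heavy chain, differed there by 0.36 (adjusted p = 0.0174), with adjusted p = 0.0529 in DESeq2, 0.0538 without WT replicate 1, 0.0606 without GFP replicate 2 and 0.0685 without GFP replicate 3.

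**Figure D3:**
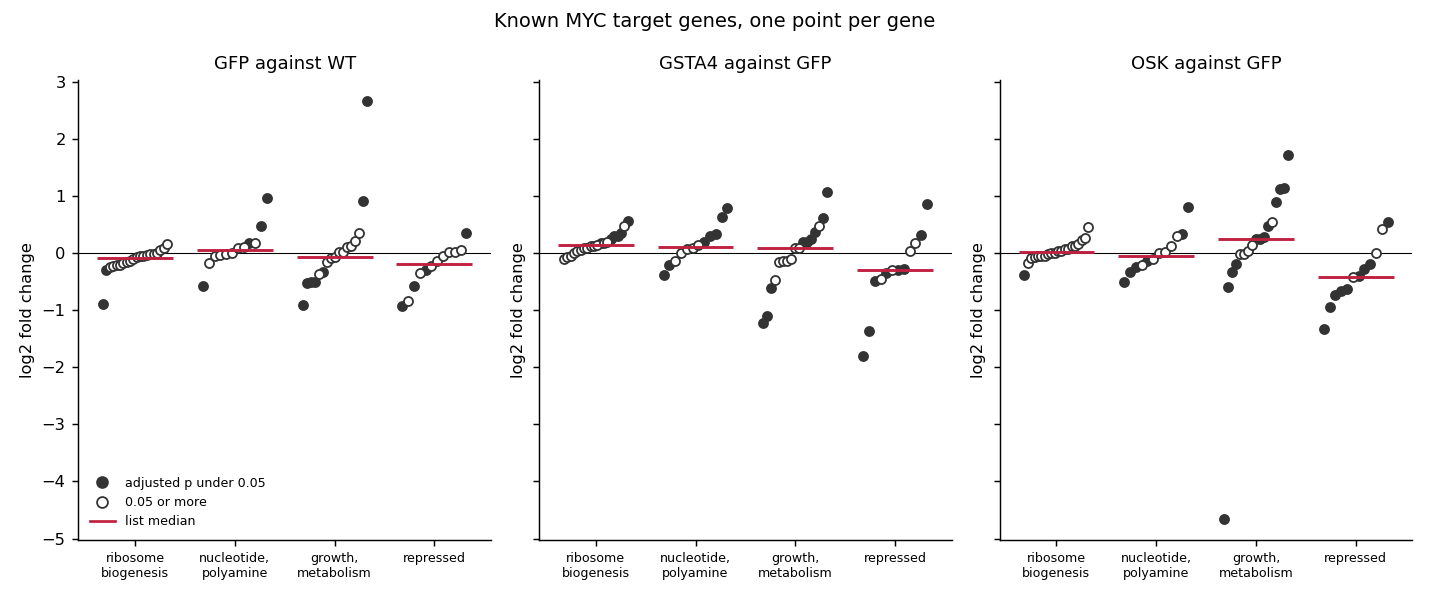
Log2 fold change of known MYC targets in 3 comparisons, 1 point per gene, ordered by value within each list. Filled points have an adjusted p under 0.05 and the red line is the list median. The median of the repressed list is -0.30 in GSTA4 against GFP and -0.42 in OSK against GFP. The lowest point, in OSK against GFP, is CCND2, whose OSK libraries lay between 0.0633 and 0.211 CPM, so its fitted change depends on the fit's prior count.

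The letters CACGTG, which read the same on both strands, were searched in promoter windows of 300 bases from RefSeq (GRCh38.p14), from 250 bases before to 50 after each gene start. They occurred in 8.77% of 27305 promoters and in 12.4% of the 11275 tested genes that matched a promoter. Among induced targets 42 of 51 matched and 17 (40.5%) held the letters. Of the repressed list 8 matched and none held them. For MYC, MAX and the other members, 3 of 7 matched a promoter and none held them in this window. Of induced targets higher in GSTA4 against GFP, 4 of the 13 that matched held the letters (30.8%), and of those not higher, 12 of 27 (44.4%). A match of letters is a description of the sequence and says nothing of binding in these cells. The 4 are shown because they are the induced targets that both rose in GSTA4 and hold the E-box. They are given 5′ to 3′ on the gene's strand, with the E-box in capitals. PAICS is at chr4:56435772-56435801 (plus strand), HK2 at chr2:74834964-74834993 (plus), MRTO4 at chr1:19251807-19251836 (plus) and HSPD1 at chr2:197500345-197500374 (minus).
PAICS: ctggaaagctgtatttgctgCACGTGgaaa
HK2: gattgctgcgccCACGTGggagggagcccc
MRTO4: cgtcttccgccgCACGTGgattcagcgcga
HSPD1: cggccctggcgaCACGTGaaaaaatcaccc
The box lies 41 bases after the start in PAICS, 194 before it in HK2, 15 after it in MRTO4 and 88 before it in HSPD1, and HK2 holds 2 boxes. HK2, the hexokinase of proliferating cells, rose by 0.62 (SE 0.12, adjusted p = 0.000517 in edgeR) and HSPD1, a mitochondrial chaperonin, by 0.20 in GSTA4 against GFP (SE 0.0632, adjusted p = 0.0214). HK2 differed by 0.10 with WT as the control (adjusted p = 0.548). The HSPD1 call was lost without GFP replicate 1 (0.0817), GFP replicate 2 (0.0747), GSTA4 replicate 2 (0.102) or GSTA4 replicate 3 (0.0652).

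PVT1 is a long noncoding RNA that hosts several microRNAs and starts 59.1 kb after the MYC start, at 127794524 to 128101256 of chromosome 8 on the plus strand. Its level was 16.7, 15.8 and 17.2 CPM in WT and 32.9, 32.2 and 16.03 CPM in GFP. It was 22.4, 26.8 and 25.9 CPM in GSTA4 and 13.7, 13.9 and 9.92 CPM in OSK. GFP replicates 1 and 2 stood above every other library, while GFP replicate 3 lay within the WT range. The OSK libraries were below all others, and the GSTA4 libraries were above WT. Groups did not overlap for 54.7% of all genes in OSK against GFP and for 58% in OSK against GSTA4. That share was not worked out for GSTA4 or OSK against WT. The fitted log2 difference was -1.11 (SE 0.192) for OSK against GFP, 2.15-fold lower, and -0.995 (SE 0.193) for OSK against GSTA4. It was -0.11 (SE 0.181) for GSTA4 against GFP and 0.59 (SE 0.186) for GSTA4 against WT. GFP exceeded WT by 0.70 (SE 0.186), and by 0.54 without GFP replicate 1, 0.56 without GFP replicate 2 and 0.98 without GFP replicate 3. The GSTA4 difference from GFP was 0.05 without GFP replicate 1 and -0.39 without GFP replicate 3, so its direction rests on single GFP libraries.

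PVT1 and MYC did not keep a constant ratio. There were 13.5 PVT1 reads per 100 MYC reads ± 0.704 in WT, 15.1 ± 1.15 in GSTA4 and 10.7 ± 1.93 in OSK (SD, n = 3 each). The GFP libraries ranged from 13.3 to 28.2. In GSTA4 both RNAs were above WT, while in OSK PVT1 was lower than in WT by 0.40 (SE 0.198) on the log2 scale and MYC overlapped WT.

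CASC19 differed strongly between libraries, with group means from 0.155 CPM in OSK to 7.40 CPM in GFP. It is transcribed from the minus strand of chromosome 8, at 127187785 to 127197627 in RefSeq, with its transcription start, the higher coordinate, at -538 kb from that of MYC. GENCODE 29 gives it a longer span, 127072694 to 127227541, which contains PRNCR1 and overlaps PCAT1 on the opposite strand. The release used for the counts is not given in the sources used here. CASC19 had 5, 16 and 24 reads in WT and 135, 141 and 27 in GFP. It had 8, 12 and 15 reads in GSTA4 and 1, 4 and 2 in OSK. GFP replicates 1 and 2 were near 10 CPM, at 10.3 and 10.1, GFP replicate 3 was at 1.83 CPM, and no other library exceeded 1.42 CPM.

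The GFP level of CASC19 was therefore a mean of unlike libraries, 7.40 CPM ± 4.82 (SD, n = 3), and it did not overlap with any other group. GFP held 7.50 times the WT reads per library size (95% exact counting interval 5.47 to 10.5), 9.01 times the GSTA4 reads (6.34 to 13.2) and 45.5 times the OSK reads (21.8 to 114). These intervals cover counting error only, and the spread within GFP is wider. WT held 6.07 times the OSK reads (2.72 to 15.96), and WT and GSTA4 overlapped, with a ratio of 1.20 (0.755 to 1.93). On the fitted log2 scale GFP exceeded WT by 2.92 (SE 0.519), and by 2.61 without GFP replicate 1, 2.63 without GFP replicate 2 and 3.39 without GFP replicate 3. GFP replicates 1 and 2 were also the libraries with the most genes detected of the 12 (27349 and 22073, against 20520 in GFP replicate 3). They had the highest lncRNA share of reads, 1.93% and 1.72%, against 1.45% in GFP replicate 3 and 1.34% to 1.68% in the other groups. Whether this bears on their CASC19 and PVT1 levels was not tested. Groups did not overlap for 34.6% of all genes in GFP against WT, 42.3% in GSTA4 against GFP and 54.7% in OSK against GFP.

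CASC8, on the minus strand at 127289676 to 127482139 with its transcription start at -253 kb, was scarce in all groups. It had 5, 0 and 5 reads in WT, 10, 1 and 7 in GFP, 1, 2 and 1 in GSTA4, and 1, 1 and 3 in OSK. The GSTA4 and OSK libraries were all at or under 3 reads, so no fold is given, and no difference between WT and GFP was detectable at this depth. Per kilobase of merged exon (2.342 kb for CASC8, 22.208 kb for CASC19), the mean level of CASC8 was highest in GFP, at 0.186 CPM, then 0.0863 in WT, 0.0492 in OSK and 0.0402 in GSTA4. For CASC19 these per-kilobase levels were 0.333 CPM in GFP, 0.0436 in WT, 0.00698 in OSK and 0.0366 in GSTA4. The CASC19 length is that of GENCODE 29, whose span is longer than RefSeq's. The release used for the counts is not given, so the standing of CASC19 against CASC8 per kilobase is uncertain.

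Further noncoding RNAs of the locus were looked up to see whether they shared the pattern of CASC19. Of 17 on the list, 13 were in the table and 2 passed the filter, PCAT1 and PRNCR1. PRNCR1, on the strand opposite to CASC19, had 61, 70 and 20 reads in GFP and 1, 4 and 15 in WT. It had 0, 2 and 3 reads in GSTA4 and 3, 5 and 4 in OSK. As for CASC19, GFP replicates 1 and 2 held most of the reads. CASC19 and PRNCR1 share 162 bases of annotated exon on opposite strands in GENCODE 29, so reads of the pair may be mixed where counting ignored strand. PRNCR1 passed the filter on low counts only through GFP, the group where it is high, so no p-value is given for its differences from GFP. It was higher in GFP than in WT by 3.08 (SE 0.607), with 2.57 to 4.36 when 1 library was left out and the highest value without WT replicate 3. PRNCR1 was lower in OSK than in GFP (log2 change -3.71, SE 0.657). GFP held 31.4 times the GSTA4 reads (95% exact counting interval 13.2 to 98.2). With WT as the control neither GSTA4 (adjusted p = 0.149) nor OSK (adjusted p = 0.568) was called for PRNCR1.

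PCAT1, a noncoding RNA known from prostate cancer, had 33, 51 and 100 reads in WT and 124, 126 and 88 in GFP. It had 78, 61 and 67 reads in GSTA4 and 26, 35 and 22 in OSK. PCAT1 rose by 1.05 in GFP against WT (SE 0.271, adjusted p = 0.00853 in edgeR) and fell by 2.11 in OSK against GFP (SE 0.299, adjusted p = 7.17e-06), or by 1.06 with WT as the control (adjusted p = 0.00926). OSK was also below GSTA4, by a log2 change of -1.32 (SE 0.312, adjusted p = 0.0014). GSTA4 against GFP was called at -0.78 (SE 0.267, adjusted p = 0.0322), and this call was lost without GFP replicate 1 (adjusted p = 0.129) or GFP replicate 2 (adjusted p = 0.103), and without GSTA4 replicates 1, 2 or 3 in turn (adjusted p = 0.0695, 0.0909 and 0.0873). With WT as the control the direction for PCAT1 in GSTA4 turned to 0.27 (adjusted p = 0.485).

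The rarer RNAs of the list showed the same contrast within GFP only in part. TMEM75, a transcript within the PVT1 span on the other strand, had 23, 24 and 4 reads in GFP and 8 or fewer in every other library. CASC11, next to MYC, had 12, 2 and 0 reads in GFP, and CCDC26 had 27, 4 and 6, so for these GFP replicate 1 was the highest library. The microRNA genes MIR1204, MIR1206 and MIR1207, which lie within PVT1, had no read in any library, and mature microRNAs are not captured by libraries of this kind.

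**Figure D4:**
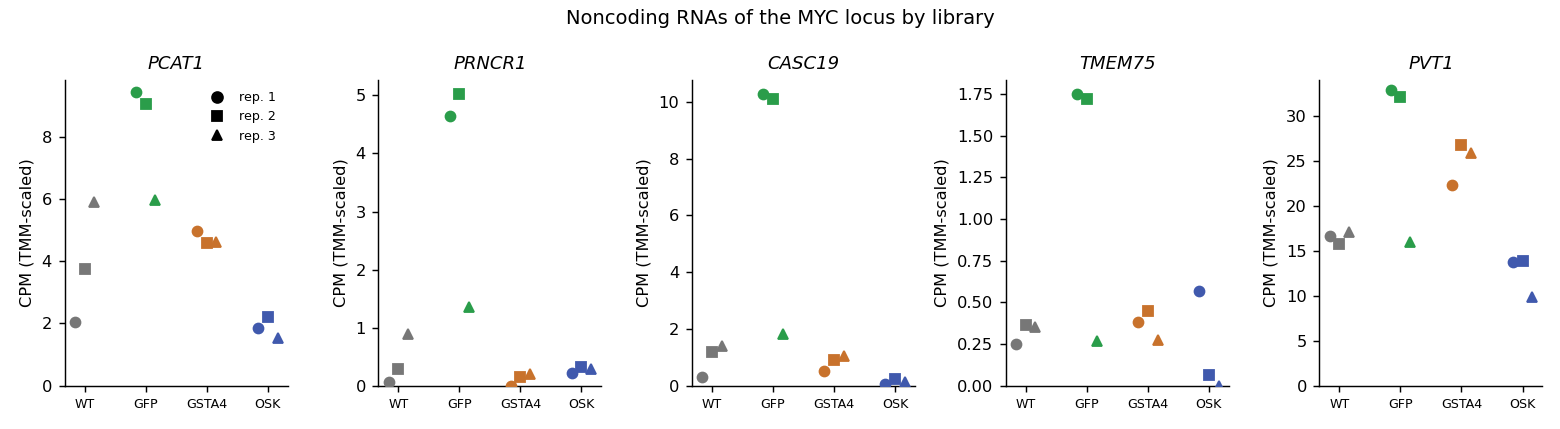
Level of 5 noncoding RNAs of the MYC locus in each library, in TMM-scaled CPM, 1 point per library. GFP replicates 1 and 2 are the highest points in each panel. GFP replicate 3 lies at 16.03 CPM for PVT1, inside the WT range, and at 1.83 CPM for CASC19, above every library of the other groups.

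The called genes around MYC went both ways in GSTA4 and in OSK against GFP, and only rose in GFP against WT. RefSeq has 161 genes whose lower coordinate, on either strand, lies within 5 Mb of the MYC start, of which 95 matched a line and 31 beside the members passed the filter. In GSTA4 against GFP 3 rose and 6 fell, in OSK against GFP 13 rose and 7 fell, and in GFP against WT 9 rose and none fell in edgeR. DESeq2 also called 9 and 0 in GFP against WT, and at an unadjusted p under 0.05 edgeR had 12 higher and 1 lower. Their median log2 changes were -0.05, 0.13 and 0.19. On the rest of chromosome 8, with 476 genes tested, the counts were 69 and 75, 99 and 124, and 61 and 53. That is 30.3%, 46.8% and 23.9% called. Within 1 Mb of MYC 3 genes beside the members passed the filter, PCAT1, PRNCR1 and POU5F1B, and all 3 rose in GFP against WT. PRNCR1 is in these counts although it passed the filter only through GFP. Fitting only the 6 libraries compared gave 5 calls within 5 Mb.

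LRATD2, at -1.18 Mb from MYC, was lower in OSK, at 249.6, 244.6 and 242.4 CPM against 635.6, 635.5 and 647.7 CPM in GFP (log2 change -1.38, SE 0.0594, adjusted p = 1.17e-13 in edgeR). The GSTA4 libraries overlapped GFP for LRATD2, at 628.4 to 667.1 CPM. ST3GAL1, a sialyltransferase gene of 8q24 that lies outside this window, had the lowest adjusted p in GSTA4 against GFP among the listed coding genes of the band. It stood at 14.7, 15.1 and 18.0 CPM in GSTA4, against 57.6, 50.8 and 62.5 CPM in GFP, and fell by 1.84 (SE 0.0939, adjusted p = 5.71e-12). The OSK libraries, at 53.4 to 57.6 CPM of ST3GAL1, overlapped GFP. TRIB1, a pseudokinase that regulates lipid genes, rose by 0.92 in GSTA4 against GFP (SE 0.113, adjusted p = 2.57e-06). SQLE, an enzyme of sterol synthesis, fell by 0.91 (SE 0.0752, adjusted p = 8.05e-09) in GSTA4 and rose by 0.55 (SE 0.072, adjusted p = 2.75e-06) in OSK. FBXO32, a ubiquitin ligase subunit, fell by 0.74 (SE 0.0923, adjusted p = 3.06e-06) in GSTA4, and ZHX2, a zinc finger repressor, rose by 1.03 (SE 0.0884, adjusted p = 6.21e-09) in OSK. ATAD2, a bromodomain ATPase known as a coactivator of MYC, rose by 1.13 in GFP against WT (SE 0.14, adjusted p = 1.07e-05), and TBC1D31, a centrosomal protein gene, by 0.87 (SE 0.212, adjusted p = 0.00576).

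POU5F1B, an expressed retrogene copy of POU5F1, lies -0.322 Mb from the MYC start within the CASC8 region. It had 180, 157 and 171 reads in OSK and 36, 26 and 44 in GFP (log2 change 2.19, SE 0.258, adjusted p = 6.17e-07 in edgeR). POU5F1 itself, part of the ORF, had 11385, 12068 and 10850 reads in the same OSK libraries and at most 5 elsewhere. The POU5F1B reads were 1.58%, 1.30% and 1.58% of the POU5F1 reads in OSK. The copies are nearly identical, so reads may be shared between them and the POU5F1B level in OSK is uncertain. Outside OSK, where POU5F1 had 5 reads or fewer, POU5F1B was higher in GFP than in WT (1.32, SE 0.333, adjusted p = 0.00754), with 7, 18 and 22 reads in WT.

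**Figure D5:**
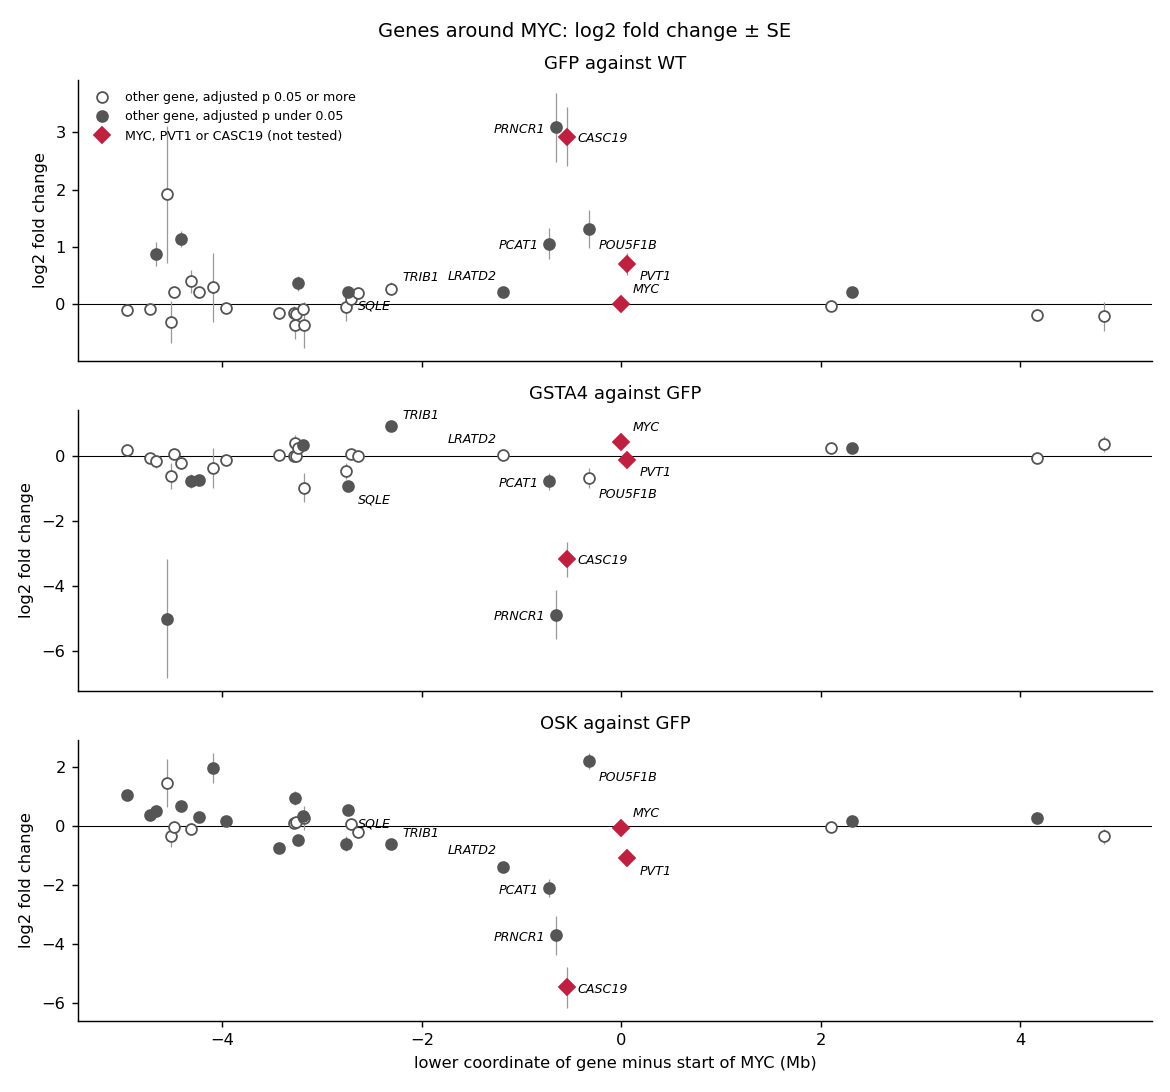
Log2 fold change of genes within 5 Mb of MYC against the distance of their lower coordinate from the MYC start. Circles are genes outside the family, filled where the adjusted p is under 0.05, red diamonds are MYC, PVT1 and CASC19, and bars are 1 SE. Among genes within 1 Mb of MYC, CASC19 and PRNCR1 are furthest from 0 in all 3 panels. In GSTA4 against GFP 2 points lie near -5, PRNCR1 (-4.89) and FAM83A (-5.01), whose GSTA4 libraries were all at 0 CPM, so that its fitted value is no bound.

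The genes most like each member over the 12 libraries were ranked by Pearson's r of log2(CPM + 0.5), with the 4 groups and their depths shared by all points. For MYC these were TRPS1 (r = 0.974), CCT4 (r = 0.974) and CCT3 (r = 0.966). CCT4 and CCT3 encode subunits of the same cytosolic chaperonin, and TRPS1, a GATA-type repressor, has its lower coordinate 12.3 Mb before MYC on chromosome 8. TRPS1 stood at 30.1 to 35.5 CPM in GSTA4 and CCT4 at 142.5 to 149.7 CPM, each above all other libraries. For MAX the closest were C1RL (r = 0.977), SLC36A1 (r = 0.968) and MAPK14 (r = 0.967), each highest in OSK and lowest in GSTA4 by group mean. For PVT1 they were IL21-AS1 (r = 0.928), NPIPB3 (r = 0.914) and PIBF1 (r = 0.909). For CASC19 they were ATP8A1 (r = 0.964), ZNF546 (r = 0.951) and PYGO1 (r = 0.941). ATP8A1, a phospholipid flippase, stood at 16.1, 14.8 and 11.5 CPM in GFP and at 6.54 to 8.78 CPM elsewhere, so it also was lowest within GFP in replicate 3.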

How the data were processed

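The authors deposited 1 table of read counts per gene for 12 libraries, whole numbers that are not normalised. The submitters' processing notes name STAR 2.7.1a, featureCounts 1.6.2 and the genome build GRCh38. The annotation release and the handling of strand and of reads with several matches are not given in the sources used here. Unnamed lines (20014, holding 0.485% to 0.822% of reads) were left out, and 1272 named lines that share a symbol were kept apart.

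The quasi-likelihood test of edgeR 4.0.16 was run in R 4.3.3 with limma 3.58.1 (TMM scaling, filterByExpr, 1 mean per group, all 12 libraries in a single fit with 8 residual degrees of freedom). The 15179 genes kept were adjusted by Benjamini-Hochberg per contrast, with a two-sided threshold of 0.05. Standard errors are the log2 fold change over the root of F. Of the 7 members, 4 passed the filter. The test was checked on simulated counts. Read ratios carry exact counting intervals. Promoters and positions are RefSeq's, and exon lengths GENCODE 29's.

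The members and lists were chosen with earlier results of these data known. General knowledge was the source of the lists. Named are every member, the 3 genes with the lowest adjusted p per list and contrast, genes within 1 Mb of MYC, and the 3 genes most correlated with each member. HNRNPK (OSK against GSTA4), SKP2 (GSTA4 against GFP) and IMPDH1 (OSK against GFP) also met this rule and are not described there. The same holds for ASAP1, LRATD2, AURKA, LDHA and MLX in GFP against WT. Other genes met in OSK against GSTA4 are described mostly in the other comparisons. MXI1 in GSTA4 against GFP, USP28 in OSK against GFP, the RPE and other cell markers, CDK9 in GFP against WT, HK2, HSPD1, TMEM75, CASC11, CCDC26, CCND2 and FAM83A were named after their values were seen. Alternatives were DESeq2 1.42.0, a replicate block, leaving out each library, only the 6 libraries compared, WT as the control, a minimum log2 change of 1, scaling by RLE or by library size alone, and either no filter or a minimum mean of 1 CPM. The labels do not pair samples by replicate number, and 3 of 18 correlations between same-numbered libraries were over 0.1. All 3 joined WT replicate 1 to replicate 1 of GFP, GSTA4 and OSK (0.169, 0.157 and 0.132). Whether the replicate 1 libraries share a batch was not tested.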

Additional observations from a re-analysis of the deposited data

How the results depend on the processing

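Leaving out 1 library aside, the alternatives gave MYC 0.41 to 0.44 in GSTA4 against GFP, -0.15 (library size scaling) to -0.06 in OSK against GFP, -0.57 (library size scaling) to -0.49 in OSK against GSTA4 and -0.00488 to 0.02 in GFP against WT (log2). With WT in place of GFP as the control, PVT1 was 0.59 in GSTA4 and -0.40 in OSK, and CASC19 was -0.26 in GSTA4 and -2.54 in OSK (log2). PCAT1 in GSTA4 turned from -0.78 to 0.27 with WT as the control. Leaving out 1 library in turn moved CASC19 in OSK against GSTA4 between -2.83 (without OSK replicate 2) and -1.95, the calls in the MYC network in GFP against WT between 7 (without GFP replicate 3) and 11, with 12 from all libraries, and those among repressed targets between 2 (without GFP replicate 2) and 4. DESeq2 called 2 of those repressed targets. A minimum log2 change of 1 left 0, 3, 2 and 4 network genes, 3, 4, 1 and 5 induced targets, 2, 1, 0 and 3 repressed targets, and 2, 6, 4 and 9 genes within 5 Mb, for GSTA4 and then OSK against GFP, then GFP against WT, and last OSK against GSTA4. Fitting only the 6 libraries compared left 5 genes within 5 Mb in GFP against WT. The replicate number as a block gave 23 induced targets and 13 network genes in GSTA4 against GFP and 2 in place of 1 ribosome biogenesis genes in OSK against GFP, and it raised those in GFP against WT from 2 to 3. The numbers pair no samples by the labels (r from -0.0204 to 0.169, with the own number best in 8 of 18 group pairs and replicates). The cause of these movements was not tested. Among single genes named by the rule above, 47 alternative values lost their call. The PCAT1 value that turned direction is 1 more. Genes named after their values were seen, such as HK2, HSPD1 and MXI1 in GSTA4 against GFP, are not in this count. Low read counts limit MYCN, MYCL and CASC8.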
